A study of Mus musculus with 10 samples.

Results

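The genes described here encode the corticosteroid receptors of the brain, genes that these receptors are known to regulate, an enzyme that regenerates the hormone, and the corticotropin-releasing peptide with its receptor. They are Nr3c1, Nr3c2, Fkbp5, Sgk1, Tsc22d3, Zbtb16, Hsd11b1, Crh and Crhr1. These 9 genes were taken, out of 23462 genes named on the arrays, by matching the RefSeq accession of each probe to the gene symbol. They were read by 15 of 56605 probes, and 14 of these 15 were among the 39142 probes tested.

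The arrays carried RNA of the whole hippocampus from nPGC-1α mice and from PGC-1αf/f mice, 5 arrays per group. Neither the labels nor the methods say whether each array held the RNA of a single mouse, so p-values measure only the spread between these samples, which may be technical. PGC-1αf/f mice carry a PGC-1α transgene at the Rosa26 locus that is silenced by a floxed PGK-neo-STOP cassette, and they served as littermate controls without Cre. In nPGC-1α mice, Cre driven by the promoter of Eno2 (neuron-specific enolase) removes the cassette, so that neurons express the transgene together with IRES-eGFP. Both groups were on a C57BL/6 background, labelled as male and 12 weeks old, and were sampled under basal conditions, without the carotid stenosis used elsewhere in the study. The labels name no glucocorticoid treatment, and the comparison asks only whether neuronal PGC-1α overexpression goes with other basal levels of these transcripts.

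Corticosterone, the glucocorticoid of mice, enters hippocampal cells freely and binds 2 nuclear receptors. The mineralocorticoid receptor (Nr3c2) binds it with the higher affinity and is abundant in hippocampal neurons, while the glucocorticoid receptor (Nr3c1) has the lower affinity and is filled at the daily peak and under stress. Both move to the nucleus and bind DNA elements near target genes, among which Fkbp5, Sgk1, Tsc22d3 and Zbtb16 are commonly used as readouts of corticosteroid action.

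The labels were checked first. Ppargc1a, the gene of PGC-1α, was at 2.20 ± 0.08 on the PGC-1αf/f arrays and at 2.20 ± 0.11 on the arrays labelled nPGC-1α (SD, n = 5 each, limma adjusted p 0.99). Directions below therefore rest on the labels. The paper reports raised PGC-1α protein on Western blots and eGFP-positive neurons in nPGC-1α mice. These arrays measure RNA, and whether the probe used here reads the transgene was not tested. Although all mice were labelled male, the Y-linked transcripts Ddx3y, Kdm5d and Uty were well above background on only 4 of 10 arrays, of which 1 (replicate 1) was a PGC-1αf/f array and 3 (replicates 1, 3 and 5) were labelled nPGC-1α. The groups also differed in array quality, with 79.0% ± 2.79 of spots well above background in PGC-1αf/f and 71.2% ± 2.57 in nPGC-1α (SD, n = 5 each, exact permutation p 0.00794, the smallest that 5 against 5 arrays can give). On slide 1, which held 8 arrays, the groups lay in different rows, and a row effect cannot be told apart from a group effect on that slide. The labels give neuron as the cell type, while the methods name the hippocampus. Markers of oligodendrocytes (6 of 6), astrocytes (5 of 5), endothelial cells (5 of 5) and hippocampal excitatory neurons (6 of 6) were well above background on all 10 arrays. The same held for microglia (4 of 4 tested), choroid plexus (7 of 7), medial habenula (6 of 6) and hypothalamus (5 of 5). Since nearly every list passed, this check cannot tell which cells or tissue were sampled. In bulk samples of whole hippocampus, fewer cells of a type and less RNA per cell cannot be told apart.

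None of the 14 tested probes passed an adjusted p of 0.05, where 0.00255% of all tested probes did, and the limma adjusted p of the members ran from 0.202 to 0.983. At an unadjusted limma p under 0.05, 3 of 14 probes differed, against 11.9% of all probes. All 3 were lower on the arrays labelled nPGC-1α, a direction that 8.52% of all probes took at this threshold, against 3.39% that were higher. Under quantile normalization these background shares were 2.87% lower and 4.05% higher. The 3 probes read Fkbp5 (A_52_P481493), Nr3c2 (A_66_P132841) and Nr3c1 (A_55_P2728068). With 1 probe standing for each gene, the brightest one tested, only Nr3c2 of the 9 genes was past this threshold. The median difference over the 14 probes was -0.04 on the log2 scale, equal to the -0.04 over all tested probes. Of the 14, 7 probes were lower and 7 higher, where 59.2% of all tested probes were lower. Of the 12 member probes with a value on every array, 0 had groups that did not overlap, while 2.74% of all such probes did.

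**Figure D1:**
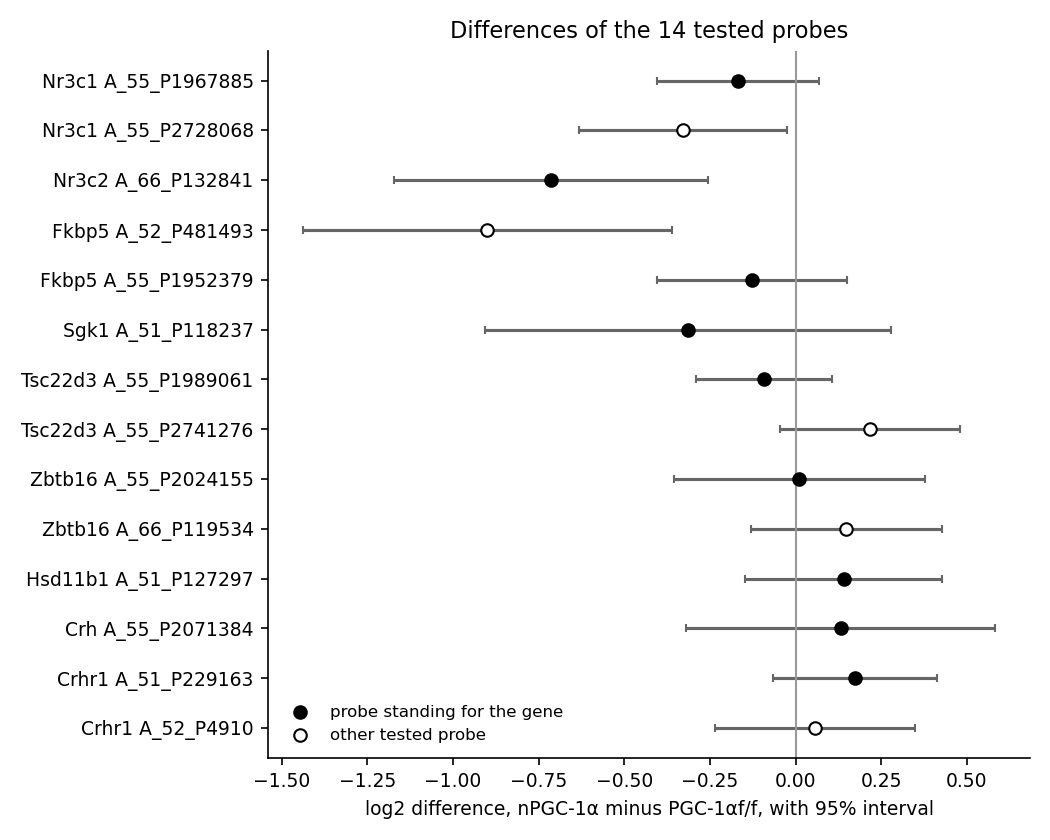
Difference of each of the 14 tested probes (x axis, log2 scale, nPGC-1α minus PGC-1αf/f) with its 95% confidence interval from limma; filled points are the probes standing for a gene and open points the other tested probes. The intervals of 1 Fkbp5, 1 Nr3c2 and 1 Nr3c1 probe lie below 0, and the other 11 include 0.

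Levels are given as log2 of the processed intensity relative to the 75th percentile of the same array, so they can be compared between arrays for 1 probe but not between probes. For the glucocorticoid receptor gene Nr3c1, the brighter probe (A_55_P1967885) read 2.62, 2.53, 2.15, 2.30 and 2.26 on PGC-1αf/f replicates 1 to 5, and 2.35, 2.19, 2.17, 2.09 and 2.21 on nPGC-1α replicates 1 to 5. The groups overlapped broadly and only nPGC-1α replicate 4 lay below every PGC-1αf/f array. The difference was -0.17 with a 95% confidence interval of -0.40 to 0.07 (limma p 0.148). The second probe (A_55_P2728068) read 1.70, 1.58, 1.55, 1.38 and 1.00 in PGC-1αf/f, and 0.98, 1.32, 1.16, 1.18 and 0.93 in nPGC-1α. Here the overlap was due to PGC-1αf/f replicate 5, which lay among the nPGC-1α arrays, and the difference was -0.33 (interval -0.63 to -0.02, limma p 0.037, adjusted 0.387). Leaving out any 1 of 6 arrays, among them PGC-1αf/f replicates 1 to 3, took the limma p above 0.05, to at most 0.0911. Without the 3 arrays that stood apart in earlier results (PGC-1αf/f replicates 1 and 2, nPGC-1α replicate 3) it was -0.21 (limma p 0.242), and the brighter probe then differed by -0.023. The second probe differed by -0.39 on the arrays of slide 1 and by -0.06 between the 2 arrays of slide 2. With the class of Y-linked transcripts as a covariate the difference of this probe was -0.33 with a limma p of 0.0673, and that of the brighter probe was -0.24 (limma p 0.0498).

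Nr3c2, the mineralocorticoid receptor gene, had the largest difference among the probes standing for a gene. The probe A_66_P132841 read -3.98, -3.36, -2.81, -3.10 and -2.98 on PGC-1αf/f replicates 1 to 5, and -3.85, -3.86, -4.36, -4.01 and -3.73 on nPGC-1α replicates 1 to 5. Of the PGC-1αf/f arrays, 4 lay above every nPGC-1α array, and replicate 1 lay within the nPGC-1α range. The means were -3.25 ± 0.45 and -3.96 ± 0.24 (SD, n = 5 each), a difference of -0.71 (standard error 0.21, 95% confidence interval -1.17 to -0.26) or 1.64-fold, with a limma p of 0.0057 and an adjusted p of 0.233. With tested probes split into 10 classes by signal, this probe fell in class 4, where 10.3% were lower at an unadjusted p under 0.05. PGC-1αf/f replicate 1 is also the PGC-1αf/f array with Y-linked transcripts. The 4 arrays with these transcripts read -4.36 to -3.73 for Nr3c2 and the 6 others -4.01 to -2.81. With that class as a covariate the difference was -0.56 (limma p 0.0223), and it was -0.70 on slide 1 (limma p 0.0169) and -0.75 between the 2 arrays of slide 2.

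The second Nr3c2 probe did not share this direction. A_51_P377914, annotated to the same transcript, read -6.94, -6.71, -5.75, -5.85 and -6.58 in PGC-1αf/f, and -5.74, -5.35, -6.59, -5.60 and -5.70 in nPGC-1α. It was thus higher on 4 of 5 arrays labelled nPGC-1α than on any PGC-1αf/f array, with nPGC-1α replicate 3 as the exception. It was close to background, not well above it on 1 array of each group (replicate 1 of PGC-1αf/f, replicate 3 of nPGC-1α), and was therefore not tested. Its mean difference was 0.57. Without the filter on dim probes, 12.4% of all probes were higher on the arrays labelled nPGC-1α and 7.18% lower at an unadjusted limma p under 0.05. In the dimmest of the 10 signal classes of tested probes, 1.63% were higher and 23.4% lower. The dimmest signal still called well above background stood at 64.8 ± 19.1 in nPGC-1α against 29.5 ± 6.85 in PGC-1αf/f (SD, n = 5 each, exact permutation p 0.00794). The local background around the A_66_P132841 spot was marked as non-uniform on all 10 arrays, as for 6.81% of tested probes, and that around A_51_P377914 on 0 arrays. What part the background level or these marks have in the disagreement was not tested.

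The balance of the 2 receptors was taken on each array as the level of Nr3c2 (A_66_P132841) minus that of Nr3c1 (A_55_P1967885). The second Nr3c2 probe, which differed in the other direction, was not used, so the balance holds for these 2 probes only. This balance is a relative quantity that does not depend on the array scaling and is not a ratio of transcript amounts. It was -6.60, -5.89, -4.96, -5.40 and -5.24 on PGC-1αf/f replicates 1 to 5. It was -6.20, -6.05, -6.53, -6.10 and -5.94 on nPGC-1α replicates 1 to 5, all within the PGC-1αf/f range. The means were -5.62 ± 0.64 and -6.16 ± 0.23 (SD, n = 5 each), a difference of -0.55 (exact permutation p 0.111, two-sided). Leaving out each array in turn gave differences of -0.79 to -0.38, with an exact permutation p from 0.00794 to 0.214. The largest difference and the lowest p came without PGC-1αf/f replicate 1, and with so few arrays this test cannot return a lower p. The size of the difference thus depended on which array was left out, and with all arrays kept the groups were not separated.

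**Figure D2:**
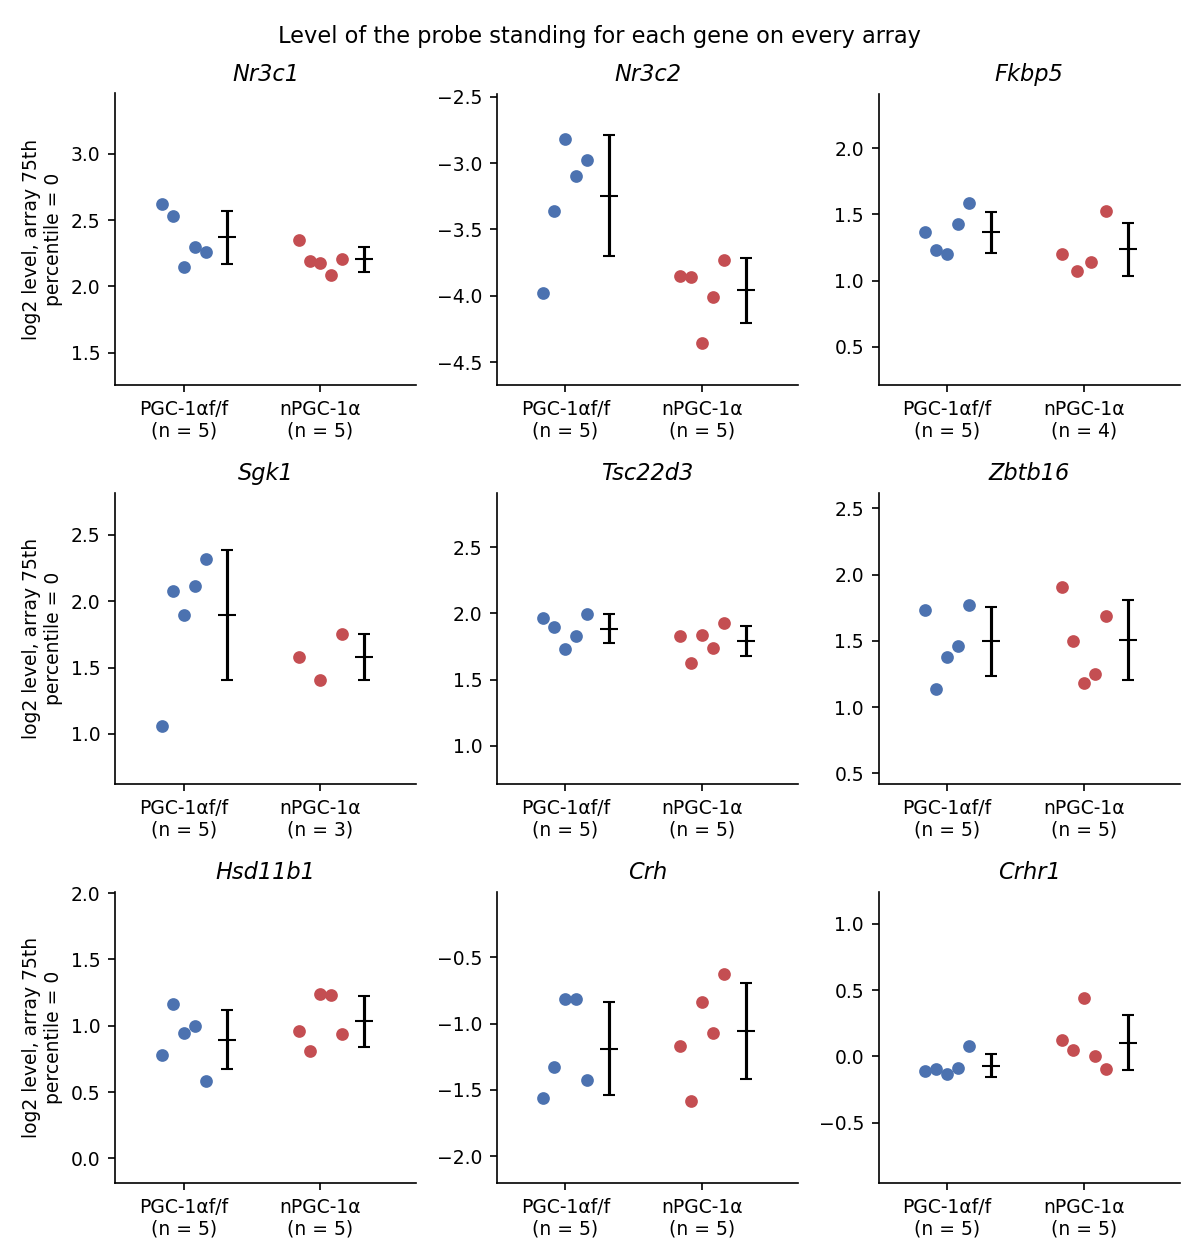
Level of the probe standing for each of the 9 genes (y axis, log2 scale with the 75th percentile of the array at 0, each panel spanning the same range) on every PGC-1αf/f and nPGC-1α array, with mean and SD to the right of the points. Nr3c2 shows 4 PGC-1αf/f arrays above all nPGC-1α arrays, and for Sgk1 the nPGC-1α group has 3 values.

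Fkbp5 encodes a co-chaperone that lowers the hormone affinity of the glucocorticoid receptor and is itself induced by it. The brighter probe (A_55_P1952379) read 1.37, 1.23, 1.20, 1.43 and 1.59 in PGC-1αf/f, and 1.20, 1.07, 1.14 and 1.53 on nPGC-1α replicates 2 to 5, the spot of replicate 1 being marked as an outlier. These values overlapped, and the difference was -0.13 (interval -0.41 to 0.15, limma p 0.328). The dimmer probe (A_52_P481493) read -3.05, -2.28, -3.02, -2.95 and -2.98 in PGC-1αf/f, and -3.00, -3.52, -4.39, -3.92 and -3.96 in nPGC-1α. On this probe nPGC-1α replicate 1 lay with the PGC-1αf/f arrays and the other 4 lay below all of them. The means were -2.86 ± 0.32 and -3.76 ± 0.52 (SD, n = 5 each), and the difference of -0.90 (standard error 0.24, interval -1.44 to -0.36) or 1.87-fold had the lowest p among the members (limma p 0.0037, adjusted 0.202). Among the tested probes of like brightness, the fourth of 10 signal classes, 10.3% were lower at an unadjusted p under 0.05. The difference was -0.88 on slide 1, -0.98 between the arrays of slide 2, and -0.85 with the Y-linked class as a covariate (limma p 0.0126).

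Since 6 of the 9 genes had 2 probes, the gap between them, the dimmer minus the brighter probe on the same array, was compared between groups, a comparison chosen after the values had been seen. For Nr3c2 the gap was -3.61 to -2.75 in PGC-1αf/f and -2.23 to -1.50 in nPGC-1α, and it changed by 1.28. Because the dimmer of these probes lay near a background that differed between the groups, this gap is given as a description with no test. For Fkbp5 it was -4.57 to -3.51 in PGC-1αf/f and -5.49 to -4.72 in nPGC-1α, a change of -0.96 (exact permutation p 0.00794, 9 arrays). Both Fkbp5 probes were well above background on all 10 arrays. For Tsc22d3 the gap changed by 0.31 (exact permutation p 0.0556), and for Nr3c1, Zbtb16 and Crhr1 by -0.16, 0.14 and -0.12 (exact permutation p 0.183 to 0.5). These p-values are not adjusted, and the values had been seen before the comparison was chosen. The share of all genes with 2 probes whose gaps separate the groups is not given, so how unusual such a gap is cannot be told. With a common floor under all arrays the change for Nr3c2 was 0.83. For Fkbp5 it was -0.70 without the 3 arrays named above, with an exact permutation p of 0.1.

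**Figure D3:**
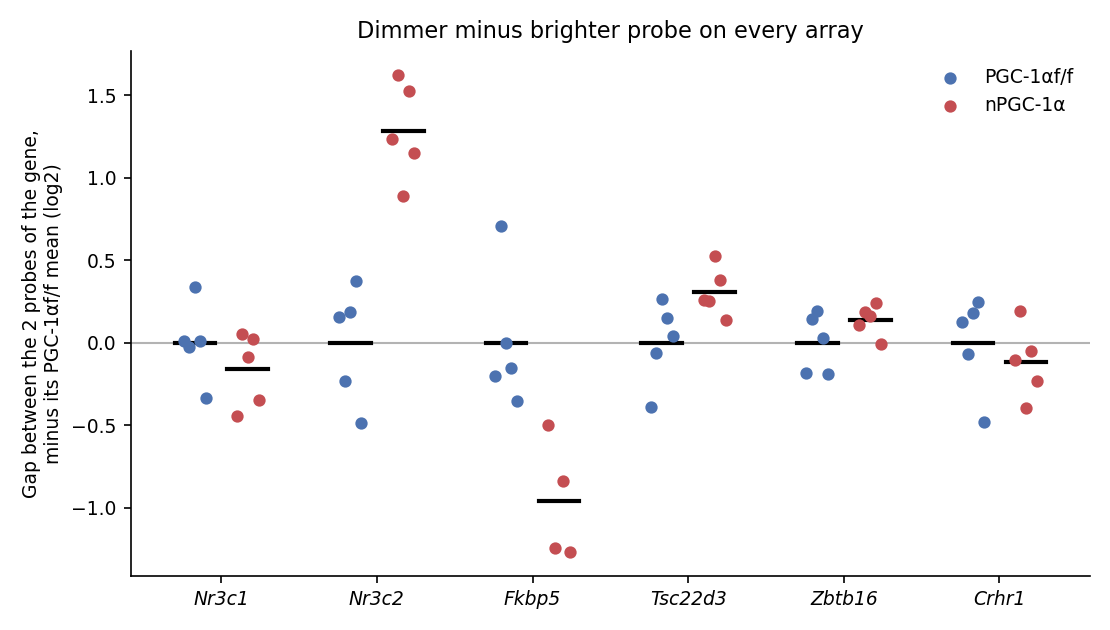
Gap between the 2 probes of each of 6 genes on every array (y axis, dimmer minus brighter probe on the log2 scale, less the PGC-1αf/f mean of that gene); points are arrays and bars are group means. The nPGC-1α arrays lie above all PGC-1αf/f arrays for Nr3c2 and below them for Fkbp5, and the groups overlap for the other 4 genes. The dimmer Nr3c2 probe lay near background, and the share of all genes with 2 probes that separate in this way is not given.

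Sgk1 encodes a kinase that acts on ion channels and transporters and is induced by both receptors. Of the 9 genes, 6 had promoter windows in the RefSeq table (assembly GRCm38.p6, 250 bases before to 50 after a transcript start), 13 windows in all. Each was searched on both strands for the half-site TGTTCT of the corticosteroid response element, and for the palindrome in which 2 half-sites face each other with 3 bases between. A half-site was present in 4 of 13 windows, 3 of Sgk1 and 1 of Tsc22d3, and in 19.0% of all 32851 windows. The full palindrome occurred in 3 of all windows (0.00913%), and 1 of these 3 belongs to Sgk1. With 1 mismatch allowed, 0.164% of all windows held it. The stretch around it is shown because it is the only full element found in the windows of these genes. It lies at chr10:21993679-21993737 on the plus strand of GRCm38.p6 and its element ends 174 bases before a transcript start, and the capitals mark the half-sites:
Sgk1: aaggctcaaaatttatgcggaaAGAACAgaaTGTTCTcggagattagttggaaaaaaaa
This match is a description of letters and not of binding.

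The only Sgk1 probe (A_51_P118237) read 1.06, 2.07, 1.90, 2.12 and 2.32 on PGC-1αf/f replicates 1 to 5, and 1.58, 1.41 and 1.75 on nPGC-1α replicates 3 to 5. The spots of nPGC-1α replicates 1 and 2 were marked as outliers and left out, and the spot lies in the first column of the array. PGC-1αf/f replicate 1 was the lowest of all arrays, and the other 4 PGC-1αf/f arrays were above every nPGC-1α value. The difference was -0.31 (interval -0.91 to 0.28, limma p 0.26). Replicate 1 of PGC-1αf/f made this difference smaller, since without that array it was -0.52 (limma p 0.0062). With the Y-linked class as a covariate the difference was -0.10 (limma p 0.71). With the 2 outlier spots kept, at 1.86 and 1.30, it was -0.31. Immediate early genes, which neuronal activity induces, were also lowest on PGC-1αf/f replicate 1, with a mean deviation of -0.75 over 9 genes against -0.05 to 0.31 on the other arrays. Their median difference between groups was 0.24, with 1 of 9 at an unadjusted limma p under 0.05, against 11.9% of all probes. Their part in the Sgk1 values was not tested.

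Tsc22d3 encodes GILZ, a leucine zipper protein that mediates anti-inflammatory effects of glucocorticoids. Its brighter probe (A_55_P1989061) spanned 1.73 to 2.00 in PGC-1αf/f and 1.62 to 1.93 in nPGC-1α, the narrowest range over all arrays among the probes standing for the 9 genes. The difference was -0.09 (interval -0.29 to 0.11, limma p 0.326). The dimmer probe (A_55_P2741276) read -0.91, -0.65, -0.49, -0.50 and -0.45 in PGC-1αf/f, and -0.39, -0.61, -0.12, -0.37 and -0.42 in nPGC-1α. Of the nPGC-1α arrays 4 were above every PGC-1αf/f array, and the difference was 0.22 (interval -0.05 to 0.48, limma p 0.0956).

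Zbtb16 encodes PLZF, a transcriptional repressor that glucocorticoids induce. Its brighter probe (A_55_P2024155) read 1.73, 1.13, 1.38, 1.46 and 1.77 in PGC-1αf/f, and 1.90, 1.50, 1.19, 1.25 and 1.69 in nPGC-1α. Arrays of both groups were spread over the same range, and the difference was 0.01 (interval -0.36 to 0.38, limma p 0.949). The dimmer probe (A_66_P119534) differed by 0.15 (interval -0.13 to 0.43, limma p 0.264). The 2 probes moved together over the 10 arrays (r 0.82, rho 0.83), and their spots lie near each other, in rows 57 and 67 and columns 137 and 139 of 384 rows and 164 columns.

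Hsd11b1, the enzyme that regenerates active corticosterone inside cells, read 0.78, 1.17, 0.95, 1.00 and 0.59 in PGC-1αf/f, and 0.96, 0.81, 1.24, 1.23 and 0.94 in nPGC-1α. The values of nPGC-1α replicates 3 and 4 were above all PGC-1αf/f arrays and the remaining 3 were not. The difference was 0.14 (interval -0.15 to 0.43, limma p 0.307).

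Crh, the peptide that drives the pituitary stress response and is made in hippocampal interneurons, read -1.56, -1.33, -0.81, -0.81 and -1.43 in PGC-1αf/f, and -1.17, -1.58, -0.84, -1.07 and -0.63 in nPGC-1α, so each group held both high and low arrays. The difference was 0.13 (interval -0.32 to 0.58, limma p 0.534), -0.04 on slide 1 and 0.80 between the 2 arrays of slide 2. Markers of the hypothalamus, where Crh is abundant, spanned a summed log2 level of -0.22 to 0.47 in PGC-1αf/f and -0.65 to 1.26 in nPGC-1α over 5 genes, and their part in the Crh values was not tested. For its receptor Crhr1, the brighter probe (A_51_P229163) read -0.11, -0.09, -0.13, -0.08 and 0.08 in PGC-1αf/f, and 0.13, 0.05, 0.44, 0.00 and -0.09 in nPGC-1α. The difference was 0.17 (interval -0.06 to 0.41, limma p 0.137), 0.26 on slide 1 (limma p 0.0454) and -0.17 between the arrays of slide 2. The dimmer Crhr1 probe (A_52_P4910) differed by 0.06 (interval -0.24 to 0.35, limma p 0.678).

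Co-variation over the arrays was examined for the 36 pairs of genes. After adjustment over the 36 pairs, 0 passed a p of 0.05 by Pearson's r or by Spearman's rho, with a smallest adjusted p of 0.217, and at an unadjusted permutation p under 0.05 there were 4 by either measure. Fkbp5 and Zbtb16 had r 0.83 over 9 arrays (exact permutation p 0.0091, rho 0.73, exact p 0.0311, adjusted 0.217 and 0.332). The 2 arrays farthest from the Fkbp5 median were those of slide 2, and without them, on slide 1, r was 0.67 over 7 arrays and no longer passed the unadjusted threshold (exact permutation p 0.103). Under quantile normalization r was 0.91 and this was the 1 pair past the adjusted threshold (adjusted 0.0314, exact permutation test).

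Nr3c2 and Sgk1 had r 0.77 over 8 arrays (exact permutation p 0.0269, rho 0.76, exact p 0.0368, adjusted 0.292 and 0.332). It was 0.94 without the 2 arrays farthest from the Nr3c2 median and 0.73 on slide 1 (exact permutation p 0.108). Hsd11b1 varied opposite to 2 of the targets. Its r was -0.76 with Zbtb16 over 10 arrays (permutation p 0.0121, rho -0.75, p 0.018 by permutation, adjusted 0.217 and 0.332) and -0.72 with Fkbp5 over 9 arrays (exact permutation p 0.0324, rho -0.72, exact p 0.0369, adjusted 0.292 and 0.332). Without the 2 arrays farthest from the median of the first gene these were -0.89 and -0.59, and on slide 1 they were -0.74 and -0.59 (exact permutation p 0.0407 and 0.179). Slide 2 held too few arrays for a value of its own. Under quantile normalization the first was -0.15 and the second -0.52. The 2 receptors had r -0.01 over 10 arrays (permutation p 0.98, rho 0.14). With the group means removed their r was -0.67, given as a description with no test. It was 0.21 without the 2 arrays farthest from the Nr3c1 median and 0.01 on slide 1, with group means kept. Of the 6 pairs among Fkbp5, Sgk1, Tsc22d3 and Zbtb16, Sgk1 and Zbtb16 had the lowest r at -0.01 (exact permutation p 0.982, 8 arrays).

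**Figure D4:**
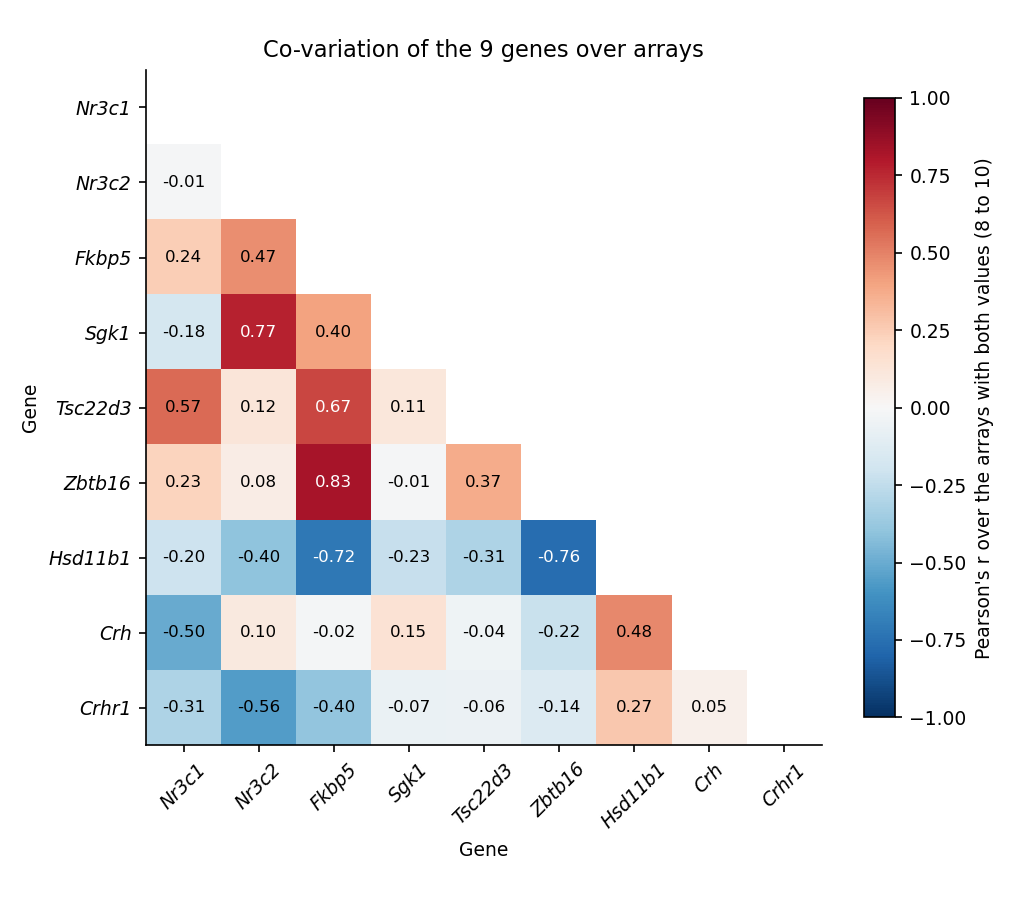
Pearson's r over the 8 to 10 arrays with both values for each of the 36 pairs of the 9 genes, as colour and number. Fkbp5 and Zbtb16 (0.83) and Nr3c2 and Sgk1 (0.77) are highest, and Hsd11b1 is negative with Zbtb16 (-0.76) and Fkbp5 (-0.72).

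For each gene, the 3 genes with the most similar pattern were then named among 13584 or 13585 others, by r over the same arrays after the group means had been removed. With so many genes and at most 10 arrays, high values are common, and they are given as a description. They were Rasa2, Gng13 and Cryzl1 for Nr3c1 (r 0.98, 0.98 and 0.98), and Plch2, Akap13 and Gstm6 for Nr3c2 (r 0.96, 0.94 and 0.93). Among the targets, Fkbp5 was followed by Ambra1, Proz and Arhgap44 (r 0.99, 0.99 and 0.99, 9 arrays), Sgk1 by Arc, Frmd8 and Dsp (r 0.99, 0.99 and 0.99, 8 arrays), Tsc22d3 by Irs1, Haus8 and Desi1 (r 0.97, 0.94 and 0.94) and Zbtb16 by Synj2, Nup214 and Usp20 (r 0.99, 0.98 and 0.98). Hsd11b1 was followed by H2al1h, Rflnb and Trim29 (r 0.94, 0.92 and 0.92), Crh by H2bc7, Ints13 and Lmnb1 (r 0.93, 0.89 and 0.89) and Crhr1 by 1700028K03Rik, Mfsd8 and Crb2 (r 0.94, 0.93 and 0.89). None of the 9 genes was among the 3 of another.

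Other genes of the pathway were taken in 5 lists of 55 genes, of which 50 were tested. At an adjusted p of 0.05 there were 0, and at an unadjusted limma p under 0.05 there were 5, of which 3 were higher and 2 lower on the arrays labelled nPGC-1α, where 11.9% of all probes passed, 3.39% higher and 8.52% lower. Of the chaperones that hold the receptors ready for the hormone, 0 of 7 were past the unadjusted threshold and the median difference was -0.10. Of these 7, 6 were lower, where 59.2% of all tested probes were lower. The 2 that differed most were Ptges3, the co-chaperone p23, at -0.14 (limma p 0.25, 3 values in nPGC-1α) and the heat shock protein gene Hsp90aa1 at -0.13 (limma p 0.423, 3 and 4 values). Of the coregulators that receptors recruit, 0 of 8 were past it, with a median of -0.10. Ncoa2, well above background on 8 arrays, differed by -0.20 (limma p 0.394) and Ncoa1 by -0.17 (limma p 0.0863).

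In the list of steroid handling, 2 of 5 tested genes were higher at the unadjusted threshold, against 3.39% of all probes, with a median of 0.10 over the list, and Hsd11b2 and Cyp11b1 were not tested. Srd5a1, which reduces corticosterone and progesterone, spanned -0.08 to 0.13 in PGC-1αf/f and 0.24 to 0.81 in nPGC-1α. The groups did not overlap, as for 2.74% of all probes, and the difference of 0.48 had a limma p of 0.0023 (standard error 0.12, adjusted 0.179). Cyp11a1, the first enzyme of steroid synthesis, spanned -4.70 to -3.90 and -4.14 to -3.41, with a difference of 0.42 (standard error 0.18, limma p 0.0389, adjusted 0.393).

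Among genes that glucocorticoids induce in various tissues, all 23 were tested, with a median difference of -0.06. Of these, 12 were lower and 11 higher, where 59.2% of all tested probes were lower. At the unadjusted threshold 2 were lower and 1 higher, where 8.52% of all probes were lower and 3.39% higher. Nfkbia, an inhibitor of NF-κB, differed by -0.23 (standard error 0.10, limma p 0.0372) and spanned 1.88 to 2.36 in PGC-1αf/f and 1.84 to 1.96 in nPGC-1α. Pdk4, a kinase that restrains pyruvate oxidation, differed by -0.35 (standard error 0.15, limma p 0.0333). The cell cycle inhibitor gene Cdkn1a differed by 0.30 (standard error 0.12, limma p 0.0239). Lcn2, an acute-phase protein gene, had the largest difference at 1.45, yet it spanned -1.82 to 1.92 in PGC-1αf/f and -0.16 to 2.35 in nPGC-1α (standard error 0.76, limma p 0.0818). Of CRH-related and pituitary peptide genes, 0 of 7 tested were past the threshold, with a median of -0.05, and Ucn, Ucn2 and Ucn3 were not tested. The 2 that differed most were the corticotropin receptor gene Mc2r at -0.44 (limma p 0.063, well above background on 9 arrays) and Pomc, the corticotropin precursor, at -0.28 (limma p 0.273).

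**Figure D5:**
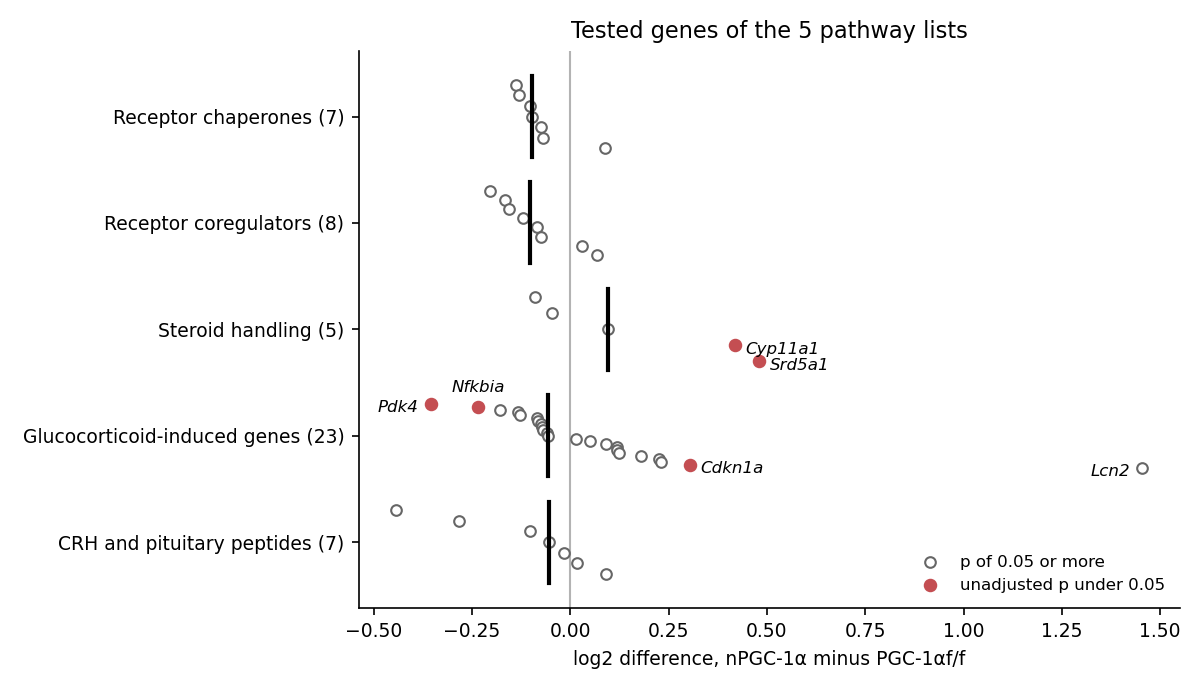
Differences of the 50 tested genes of the 5 pathway lists (x axis, log2 scale, nPGC-1α minus PGC-1αf/f, with the number tested beside each list); points are genes, filled at an unadjusted limma p under 0.05, and bars are list medians. The medians lie between -0.10 and 0.10, and Lcn2 at 1.45 is open because its arrays vary widely.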

How the data were processed

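Per the file headers, the authors extracted an intensity for each spot with Feature Extraction 11.5.1.1 (the methods name another version), background-subtracted and not normalized between arrays. A second deposited table holds the authors' log2 values for 41606 probes, made with GeneSpring per the methods, and served as an alternative (r with the scanner values across probes at least 0.9987 on each array). Control spots and outlier spots were left out, log2 was taken, spots of 1 probe were averaged, and the array's 75th percentile was subtracted. A probe was tested if every array of either group had it well above background and each group kept at least 3 values. Tests used limma 3.58.1 in R 4.3.3, with p-values adjusted by Benjamini-Hochberg over 39142 probes. Single values and probe gaps were compared by exact permutation tests, and correlations by 100000 permutations, or by all permutations below 10 arrays (Python 3.11.15, numpy 2.4.6).

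Symbols came from RefSeq tables of GRCm38.p6, and the array files give no genome build. Of several tested probes, the brightest one stood for its gene. Named are the 9 genes with every probe, Ppargc1a, the 3 genes most like each of them, and from the pathway lists those at an unadjusted p under 0.05 with the 2 largest differences of each list. The genes and lists were chosen with earlier results of these data known. The normexp correction used median pixel intensities, since mean pixel intensities were not used here. Alternatives covered scaling, normalization, background correction, filters on dim probes and outlier spots, blocks, the Y-linked class, array weights, the exact Mann-Whitney test, averaging of probes and leaving out each array. The fits were tested on simulated data. The number of arrays limits the precision. The promoter of Nr3c1 was not analysed here.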

Additional observations from a re-analysis of the deposited data

Results flagged for a closer look

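Among 31 groups of values of these genes, 2 held a value lying far from the rest of its group, and chance alone gives this in about 1 of 20 groups. On the dimmer Fkbp5 probe (A_52_P481493), replicate 2 of PGC-1αf/f stood at -2.28, above the remaining PGC-1αf/f values of -3.05 to -2.95. Leaving it out gave a difference of -0.76 (limma p 0.00954). On the brighter Crhr1 probe (A_51_P229163), replicate 5 of PGC-1αf/f stood at 0.080, above the remaining values of -0.13 to -0.08. Leaving it out gave a difference of 0.21 (limma p 0.0906).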

How the results depend on the processing

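Over 32 alternatives, the 14 tested probes gave 396 values, 385 with the direction reported. No alternative gave a member probe past an adjusted p of 0.05. Crh reversed to -0.16 with array weights, -0.037 on slide 1 and -0.094 without the 3 arrays that stood apart in earlier results (PGC-1αf/f replicates 1 and 2, nPGC-1α replicate 3; this alternative, the common floor and those of the probe gaps were chosen after seeing the data). Zbtb16 reversed to -0.089 with the Y-linked class as a covariate, and leaving out each array in turn gave -0.088 to 0.091. The dimmer Crhr1 probe ranged from -0.026 to 0.14 in this way, and the mean of probes gave 0.062 for Tsc22d3. The median over the probes was 0.062 when the probes of a gene were averaged and -0.096 to 0.065 leaving out each array, the highest without nPGC-1α replicate 4.

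At an unadjusted p under 0.05, 1 probe and 0 genes passed by the exact Mann-Whitney test, against 3 and 1. There were 2 genes on slide 1 and with the Y-linked class, 3 with the mean of probes, and 1 to 2 leaving out each array, 2 without PGC-1αf/f replicate 1. Of the pathway genes, 2 passed with median scaling, with quantile normalization and with normexp, 3 with the Y-linked class, 1 without the 3 arrays, and 3 to 6 leaving out each array, against 5. The share of all probes past this threshold was 11.9% in the main fit and 7.54% by Mann-Whitney. It was 12.3% on slide 1, 11.2% with the Y-linked class and 12.8% with the mean of probes. With median scaling, quantile normalization and normexp it was 11.6%, 6.92% and 11.7%. Without the 3 arrays it was 5.66%, and 7.98% to 15.6% leaving out each array. Leaving out each array, Nr3c2 differed by -0.90 to -0.61 and the dimmer Fkbp5 probe by -1.09 to -0.74, with limma p at most 0.0159 and 0.0103. Without the 3 arrays, a choice made after seeing the data, they differed by -0.90 (unadjusted limma p 6.98e-05) and -0.62 (unadjusted limma p 0.0292). The Nr3c2 probe missed the unadjusted threshold by Mann-Whitney (exact p 0.0556) and the second Nr3c1 probe under quantile normalization (limma p 0.168), on the authors' values (limma p 0.0526) and by Mann-Whitney (exact p 0.0556). Nr3c2 minus Nr3c1 was -0.79 to -0.38 leaving out each array. In co-variation, 1 pair passed under quantile normalization.

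Leaving out each array, Hsd11b1 differed by 0.063 to 0.21, the lowest without PGC-1αf/f replicate 5, and the brighter Fkbp5 probe by -0.22 to -0.072. The probe gap of Fkbp5 changed by -1.11 to -0.70 over the alternatives. Without the 3 arrays the Fkbp5 gap had an exact p of 0.1, the smallest that design allows. The replicate numbers were not taken to pair the arrays, because the labels do not say so and 1 of 5 same-numbered pairs, replicate 2, correlated at only 0.08 in its deviations from the group means. The other 4 pairs correlated at 0.11 to 0.36, and same-numbered arrays lay in the same column of slide 1 or both on slide 2, which is a hint of pairing from the data and not from the design. With a replicate block, 2 member genes passed the unadjusted threshold, as did 16.6% of all probes. They were Sgk1 at -0.53 (limma p 0.0107) and Nr3c2, and Nr3c2 minus Nr3c1 had an exact p of 0.188. Under the block the Fkbp5 probe gap had an exact p of 0.125, the smallest it allows. Sgk1 could not be tested on slide 1, without the 3 arrays or without nPGC-1α replicate 3, 4 or 5, for lack of values. For Nr3c2 minus Nr3c1, the filters, array weights, trend with robust and the tests per probe were not run. Probes near background, such as the second Nr3c2 probe, limit what can be read from dim signals.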
